A study of Homo sapiens with 6 samples.

Results

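The MYC and MAX network was described here by 10 genes: the MYC family (MYC, MYCN and MYCL), their obligate partner MAX, the MAX-binding repressors (MXD1, MXD3, MXD4, MXI1 and MNT) and the MAX-like hub MLX. They were the 10 rows of the expression table, among 46427 genes, that carried these symbols. 9 of the 10 had at least 1 read in each library, and MYCN did not. The libraries came from 3 human non-small cell lung cancer (NSCLC) lines, H460 (from a large cell carcinoma), H1299 (from a lymph node metastasis) and A549 (from an adenocarcinoma). In each line, cells transfected with a small interfering RNA against MALAT1 (si-MALAT1), an abundant nuclear long non-coding RNA, were set beside control cells labelled as not treated. The study's methods describe both a negative control and a control siRNA, and do not say which of these was sequenced, so knockdown and transfection cannot be told apart. Each line and condition had 1 library, 6 in all, so the 3 lines served as the replicates of the treatment, and a change seen in 1 line had no replicate check.

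MYC, MYCN and MYCL are transcription factors of the basic helix-loop-helix leucine zipper family. They bind the DNA word CACGTG (the E-box) only as dimers with MAX, and as such raise the transcription of genes for ribosome production, nucleotide synthesis, glycolysis and cell division. MXD1, MXD3, MXD4, MXI1 and MNT compete for MAX and recruit the SIN3 and histone deacetylase corepressors to the same sites. MLX is a second hub, which pairs with the glucose-sensing factors MLXIP (MondoA) and MLXIPL (ChREBP) and also with MXD1, MXD4 and MNT.

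The E-box also lies near the start sites of some of the network's own genes, and these windows are shown because members of the network can bind that word. RefSeq promoter windows of 300 bases (GRCh38.p14), which run from upstream of the start site to a short stretch past it, were found for 9 of the 10 genes (not MYC), as 12 windows. CACGTG, which reads the same on both strands, was in 3 of those 12 windows (25%), against 2548 of the 35116 windows used (7.26%). It was in 19 of 48 windows (39.6%) of a list of MYC-induced target genes, of which 35 of 41 had a window. The stretches of 60 bases that hold it are given 5′ to 3′ on the strand of the gene, with the word in capitals, for MXD4 (chr4:2262300-2262359, minus strand), MNT (chr17:2401221-2401280, minus strand) and MLX (chr17:42567023-42567082, plus strand).
MXD4: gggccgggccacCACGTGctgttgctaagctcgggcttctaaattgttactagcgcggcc
MNT: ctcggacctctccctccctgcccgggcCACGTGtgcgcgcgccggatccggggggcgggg
MLX: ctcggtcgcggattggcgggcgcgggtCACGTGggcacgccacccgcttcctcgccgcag
Counted in bases from the start site of each window, with upstream negative, the word began at -238 in MXD4, -193 in MNT and -50 in MLX. The start site of the MLX window is position 42567100, whereas the gene model of MLX in the annotation begins at 42567060. The MXD3 window (chr5:177312703-177313002, minus strand) lies wholly outside the gene model of MXD3, which ends at 177311898. The lack of the word in that window therefore does not describe the annotated start of MXD3. These are matches of letters and not measured binding sites.

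Total read counts ran from 42506818 to 68515992 per library, the 2 A549 libraries being the shallowest. MALAT1 checked the labels. Its log2 fold change, si-MALAT1 against control, was -2.32 for H460, -2.96 for H1299 and -2.84 for A549. In a fit across 19122 genes with the cell line as a term (edgeR quasi-likelihood, Benjamini-Hochberg), MALAT1 was the only gene called (adjusted p = 0.0381), and it lost that call when H1299 or A549 was left out. 5 epithelial markers summed to between 458 and 4728 TPM (a level scaled by transcript length and library size). Of these, the adhesion genes EPCAM and CDH1, which define epithelium, were under 1 TPM in both libraries of H460 and H1299. The sum was 4728 TPM in the A549 control and 2078 TPM after si-MALAT1, 1222 and 878 TPM in H460, and 480 and 458 TPM in H1299. The keratins KRT8 and KRT18 carried most of the A549 sum, at 1778 and 793 TPM and at 2918 and 1235 TPM, control first. EPCAM went the other way, with log2 fold changes of 1.33, 0.99 and 1.16 in H460, H1299 and A549, and CDH1 was 27.8 and 39.4 TPM in A549. The part of this in the results on the network was not tested. As RNA was read from whole cultures, fewer cells of a type and less RNA per cell cannot be told apart. 9 markers of blood, endothelial and stromal cells summed to between 0.427 and 13.3 TPM, with PTPRC, CD3E and CDH5 at 0 reads in each library. They were not all absent. CD14 measured 7.41 and 9.25 TPM in H460 and 4.53 and 9.06 TPM in A549, control first. LUM measured 3.93 and 3.97 TPM in H460. Other values of these markers were under 1 TPM.

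Within the MYC family, MYC supplied nearly all of the transcripts. MYC (gene ID 4609, GRCh38 chr8:127735434-127742951, plus strand) stood at 52.6 TPM in the H460 control and 41.2 TPM in H460 si-MALAT1. It stood at 15.9 and 12.1 TPM in H1299 and at 28.7 and 18.9 TPM in A549, control first. H460 held the most MYC and H1299 the least, with no overlap between the lines, and in each line the si-MALAT1 library was the lower one. How many of all genes keep lines apart in this way was not counted, here or for MYCL, MXD4 and MXD1 below. In the edgeR contrasts between lines, 38.2% to 52.6% of all genes were called. The MYC share of the summed TPM of MYC, MYCN and MYCL lay between 94.7% and 99.2%. In the H460 control the MYC level exceeded that of 93% of the 17834 genes with reads in each library, and in the H1299 si-MALAT1 library that of 67%.

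MYCL, the family member first found amplified in small cell lung cancer, was a low transcript. MYCL (chr1:39895428-39901917, minus strand) measured 0.439 and 0.315 TPM in H460, 0.308 and 0.303 TPM in H1299 and 1.62 and 0.961 TPM in A549, control first. Both A549 libraries lay above all 4 others. MYCN (chr2:15940550-15947004, plus strand), best known from neuroblastoma, had 10 reads in the H460 control and 0 reads in the other 5 libraries, where a count of 0 allows up to 3 reads. No fold change was computed for MYCN.

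MAX and MLX, the hubs of the network, were present at moderate levels. MAX (chr14:65006101-65102695, minus strand) measured 13.7 and 10.9 TPM in H460, 14.1 and 14.0 TPM in H1299 and 11.1 and 10.1 TPM in A549, control first. The 6 values of MAX spanned a narrow range beside those of MYC. MLX (chr17:42567060-42573203, plus strand) measured 23.4 and 17.9 TPM in H460, 13.2 and 10.8 TPM in H1299 and 27.8 and 19.2 TPM in A549. H1299 was the lowest line for MLX, and its si-MALAT1 library was the lowest of the 6. MLX shared 775 exon bases (30.2% of its exon length) with PSMC3IP on the opposite strand, and whether the authors counted by strand is not given in the sources used here, so reads of the pair may be mixed.

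Among the repressors, MXD3 (chr5:177305499-177311898, minus strand) had the highest TPM in 5 of the 6 libraries. It measured 20.0 and 28.8 TPM in H460, 22.2 and 17.1 TPM in H1299 and 17.8 and 23.7 TPM in A549, control first. The si-MALAT1 library was the higher one in H460 and A549 and the lower one in H1299. MXD3 shared 721 exon bases (26.1%) with PRELID1 on the opposite strand, with the same limit as for MLX.

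MXD4 (chr4:2247432-2262109, minus strand), a member of the family that is typical of cells leaving the cycle, differed widely between the lines. It measured 3.90 and 5.74 TPM in H460, 14.3 and 24.0 TPM in H1299 and 8.02 and 8.63 TPM in A549, control first. The 3 lines did not overlap, and in each of them the si-MALAT1 library was the higher one. The order H460, A549, H1299 from low to high was the reverse of the order of MYC. MXD4 passed MXD3 in the H1299 si-MALAT1 library alone, where it made up 44.2% of the summed repressor TPM, against 8.88% in the H460 control.

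MXI1 (chr10:110207605-110287365, plus strand), a MAX partner with several start sites, measured 16.5 and 12.0 TPM in H460, 7.38 and 7.69 TPM in H1299 and 13.7 and 9.10 TPM in A549, control first. H1299 was the lowest line, and its 2 libraries were close to each other. MNT (chr17:2384073-2401060, minus strand), the broadly expressed antagonist of MYC, measured 2.64 and 1.90 TPM in H460, 1.94 and 2.80 TPM in H1299 and 2.53 and 3.39 TPM in A549. The libraries of the 3 lines overlapped for MNT. MXD1 (chr2:69915041-69942945, plus strand), a repressor induced in differentiating cells, measured 0.795 and 0.507 TPM in H460, 1.89 and 2.86 TPM in H1299 and 0.772 and 0.538 TPM in A549. Both H1299 libraries lay above all others for MXD1.

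**Figure D1:**
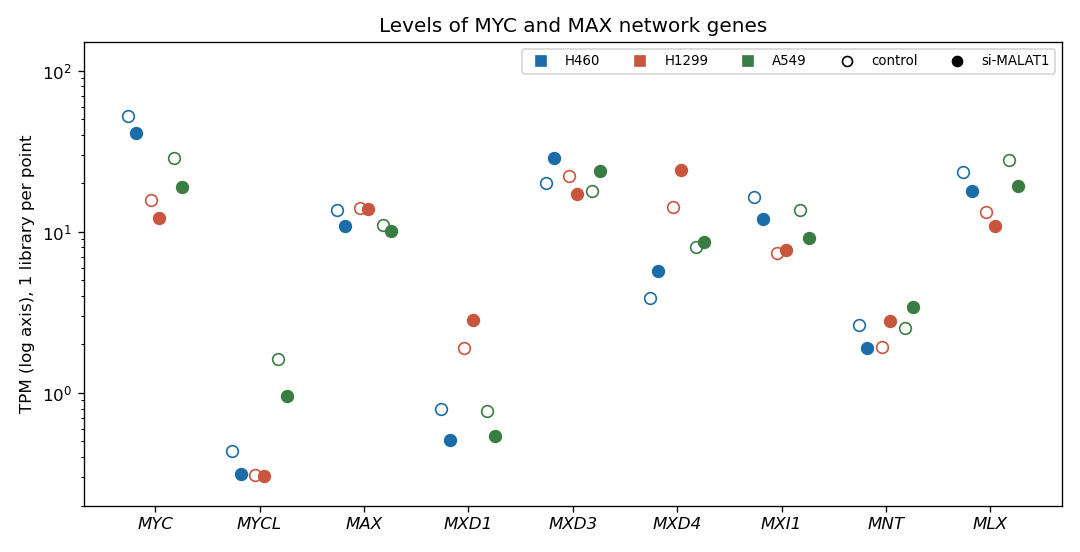
The plot gives the level of 9 network genes (TPM, log axis), with 1 point per library, a color for each cell line, open points for control and filled points for si-MALAT1. MYC runs from 12.1 to 52.6 TPM with the lines apart, MAX stays between 10.1 and 14.1 TPM, and MXD4 is lowest in H460 and highest in H1299.

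The differences between lines were estimated in the same edgeR fit, from 2 libraries per line that differ in treatment. Values are log2 differences with standard errors (SE), which here and below were derived from the log2 value and the test statistic of edgeR. The p-values were adjusted over all 19122 genes within each contrast. H1299 against H460 called 5 of the 9 tested members, where 52.6% of all genes were called. A549 against H460 called 4 of 9, against 38.2% of all genes. A549 against H1299 called 6 of 9, against 48.9% of all genes. The network's share was thus near the background in each contrast, and the contrasts share libraries. The p-values rest on how far the treatment change differed between the lines, since the 2 libraries of a line differ in treatment. They do not measure a spread between replicate cultures of a line. The labels do not say whether libraries of a line came from separate cultures.

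MYC differed in each contrast. It was lower in H1299 than in H460 by -2.13 (SE 0.16, adjusted p = 0.000156 by edgeR) and lower in A549 than in H460 by -1.32 (SE 0.15, adjusted p = 0.00139 by edgeR). It was higher in A549 than in H1299 by 0.81 (SE 0.15, adjusted p = 0.00622 by edgeR). MYC therefore had the order H460, A549, H1299 from high to low, with each neighbour past the threshold.

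MAX differed only between A549 and H460, by -0.49 (SE 0.14, adjusted p = 0.0329 by edgeR). Its other 2 contrasts were -0.16 for H1299 against H460 (adjusted p = 0.372 by edgeR) and -0.34 for A549 against H1299 (adjusted p = 0.0877 by edgeR). In TPM, MAX was slightly higher in H1299 than in H460, so the direction of that contrast depends on the scale. MLX was lower in H1299 than in H460 by -1.12 (SE 0.14, adjusted p = 0.00103 by edgeR) and higher in A549 than in H1299 by 1.00 (SE 0.14, adjusted p = 0.0019 by edgeR). For MLX, A549 and H460 were neighbours whose difference of -0.12 did not pass (SE 0.14, adjusted p = 0.518 by edgeR).

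MYCL was higher in A549 than in H460 by 1.63 (SE 0.37, adjusted p = 0.0161 by edgeR) and than in H1299 by 2.04 (SE 0.38, adjusted p = 0.00573 by edgeR). The H1299 and H460 levels of MYCL did not separate, with a difference of -0.41 (SE 0.37, adjusted p = 0.394 by edgeR). A549 was thus the line with the most MYCL, although its MYCL level in TPM was far below that of MYC there.

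MXD4 and MXD1 were the members called higher in H1299 than in both other lines. MXD4 was higher in H1299 than in H460 by 1.62 (SE 0.19, adjusted p = 0.000812 by edgeR) and lower in A549 than in H1299 by -1.09 (SE 0.19, adjusted p = 0.00414 by edgeR). The A549 and H460 difference of MXD4, 0.53 (SE 0.19), missed the threshold in edgeR (adjusted p = 0.0663) and passed it in DESeq2 (adjusted p = 0.0421), and was 0.81 between the control libraries alone. MXD1 was higher in H1299 than in H460 by 1.54 (SE 0.33, adjusted p = 0.00928 by edgeR) and lower in A549 than in H1299 by -1.81 (SE 0.34, adjusted p = 0.00588 by edgeR). Between the control libraries alone, which allow no test, MXD1 differed by 1.01 and -1.28.

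MXI1 followed the order of MYC in these contrasts. In TPM, MXI1 was 13.7 in the A549 control and 12.0 in H460 si-MALAT1, so those lines overlapped, unlike for MYC. It was lower in H1299 than in H460 by -1.25 (SE 0.17, adjusted p = 0.00166 by edgeR) and lower in A549 than in H460 by -0.63 (SE 0.17, adjusted p = 0.0296 by edgeR). The A549 and H1299 difference of 0.62 (SE 0.17) passed in the filtered fit (adjusted p = 0.0265 by edgeR) and not when low genes were kept. MXD3 and MNT passed in no contrast. The widest difference of MXD3 was -0.61 for H1299 against H460 (SE 0.26, adjusted p = 0.0967 by edgeR), and that of MNT was 0.51 for A549 against H1299 (SE 0.25, adjusted p = 0.142 by edgeR). Between the control libraries alone, MXD3 differed by -0.08 and MNT by -0.85 for H1299 against H460.

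**Figure D2:**
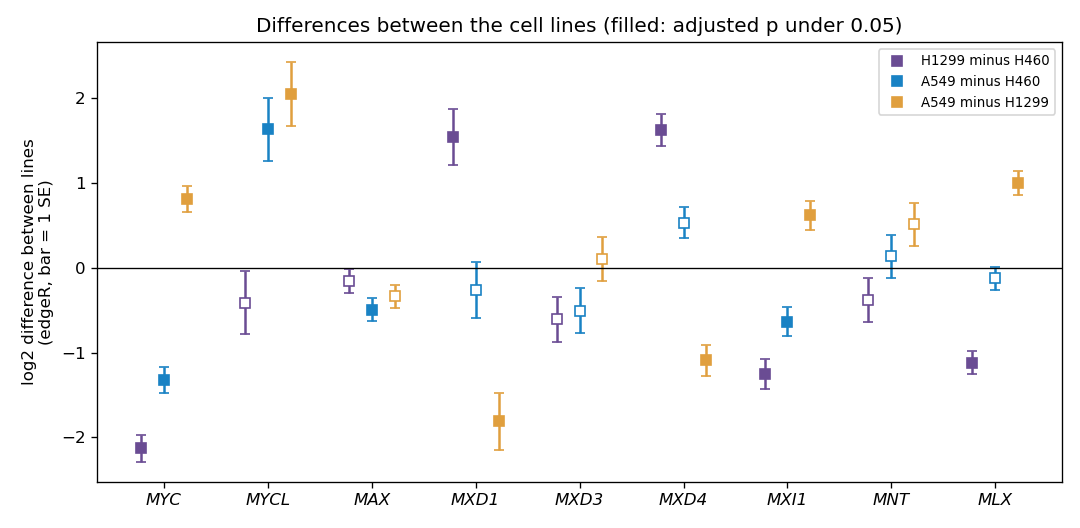
The plot gives the log2 difference between cell lines for 9 network genes (bars, 1 SE derived from the edgeR test statistic), with a color for each contrast and filled squares where the adjusted p was under the threshold. MYC is filled in all 3 contrasts, from -2.13 to 0.81, while MXD3 and MNT are open in each.

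The main question of the design was what changed when MALAT1 was lowered. For each line the log2 fold change was taken between the 2 libraries on counts scaled by DESeq2 size factors, plus a pseudocount of 1, and 95% exact binomial (Clopper-Pearson) intervals cover counting error only. MYC reads were 12001 and 9988 for H460, 3620 and 2329 for H1299 and 3891 and 2866 for A549, control first. MYC changed by -0.18 (interval -0.22 to -0.14) for H460, by -0.51 (-0.58 to -0.43) for H1299 and by -0.59 (-0.66 to -0.52) for A549, with a mean of -0.42 ± 0.21 (SD, n = 3 lines). MYC was lower in 3 of 3 lines. On the TPM scale (log2 of TPM plus 1) the values were -0.34, -0.36 and -0.58, so that H460 stood apart from H1299 on the count scale and not on the TPM scale.

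MLX and MAX were the other members lower in 3 of 3 lines. MLX reads were 3231 and 2569 for H460, 1830 and 1284 for H1299 and 2298 and 1761 for A549, and the fold changes were -0.25, -0.38 and -0.53, with a mean of -0.39 ± 0.14 (SD, n = 3 lines). The opposite-strand neighbour PSMC3IP measured 0.33, -1.03 and -0.33 in the same order. MAX reads were 1594 and 1270 for H460, 1607 and 1356 for H1299 and 775 and 762 for A549, and the fold changes were -0.25, -0.11 and -0.17, with a mean of -0.18 ± 0.07 (SD, n = 3 lines). On the TPM scale the H1299 value of MAX was -0.01.

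MXD4 was the member higher in 3 of 3 lines. Its reads were 879 and 1346 for H460, 3204 and 4687 for H1299 and 1086 and 1302 for A549. MXD4 changed by 0.70 (interval 0.57 to 0.82) for H460, by 0.68 (0.61 to 0.75) for H1299 and by 0.12 for A549, with a mean of 0.50 ± 0.33 (SD, n = 3 lines). The A549 interval of MXD4 reached just below 0. A direction shared by all 3 lines was also held by 18.8% of all 17834 genes with reads in each library on the lower side and by 21.4% on the higher side, against 3 of 9 and 1 of 9 members.

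The other repressors went different ways in different lines. MXD3 reads were 1260 and 1871 for H460, 1392 and 950 for H1299 and 688 and 1001 for A549, and its fold changes were 0.65, -0.42 and 0.40. MNT reads lay between 539 and 846 over the 6 libraries, and its fold changes were -0.39, 0.58 and 0.21. MXD1 reads were 258 and 171 for H460, 608 and 799 for H1299 and 150 and 118 for A549, and its fold changes were -0.51, 0.52 and -0.49. H1299 thus stood on the opposite side from H460 for each of these 3 genes, and for MXD3 and MXD1 from A549 as well. PRELID1, which overlaps MXD3 on the opposite strand, measured -0.07, -0.50 and -0.12.

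MXI1 had 3254 and 2483 reads for H460, 1436 and 1312 for H1299 and 1604 and 1196 for A549, with fold changes of -0.31, 0.00 and -0.57. The H1299 value of MXI1 was -0.03 when TMM factors were used. MYCL had 71 and 53 reads for H460, 54 and 52 for H1299 and 175 and 118 for A549, with fold changes of -0.33, 0.07 and -0.71. The MYCL intervals in H460 (-0.88 to 0.19) and H1299 (-0.50 to 0.65) held 0, and that in A549 (-1.06 to -0.37) did not.

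**Figure D3:**
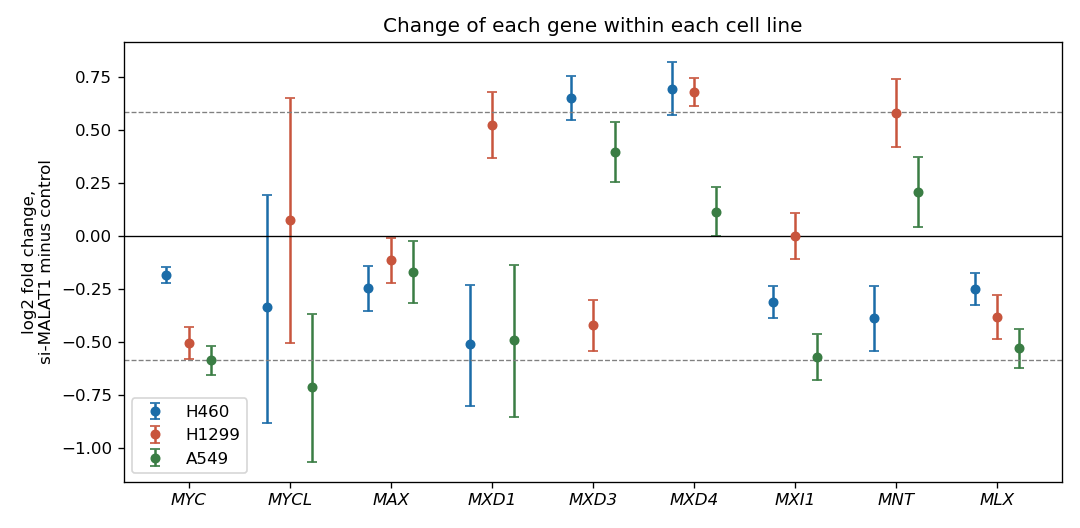
The plot gives the log2 fold change, si-MALAT1 against control, of 9 network genes in each cell line, with 95% intervals of counting error and dashed lines at a fold of 1.5. MYC, MAX and MLX lie below 0 in the 3 lines, MXD4 lies above 0 in the 3 lines, and MXD1, MXD3 and MNT have the H1299 point on the other side of 0 from the H460 point.

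Few members changed by a fold of 1.5. In H460, 2 of 9 members were higher by that fold (MXD3 and MXD4), against 9.5% of all genes, and 0 were lower, against 10.3%. In H1299, 1 of 9 was higher (MXD4), against 11.7%, and 0 were lower, against 11.4%. In A549, 0 were higher, against 11.5%, and 2 were lower (MYCL and, only just past the fold, MYC), against 11.4%. Counted at any size, 7 of 9 members were lower in H460, 4 in H1299 and 6 in A549, where 48.1%, 48.1% and 49.3% of all genes were lower. The median of the 9 fold changes was -0.25 for H460, 0.00 for H1299 and -0.49 for A549, beside 0.02, 0.02 and 0.01 for all genes.

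In the test across the 3 lines, edgeR called 0 of 9 members, as it called 0.00523% of all genes. 3 members had an unadjusted p under 0.05, as did 2863 of the 19122 genes (15.0%). They were MLX at -0.40 (SE 0.11, unadjusted p = 0.0106, adjusted p = 0.192 by edgeR), MYC at -0.44 (SE 0.12, unadjusted p = 0.0114, adjusted p = 0.198 by edgeR) and MXD4 at 0.48 (SE 0.15, unadjusted p = 0.0177, adjusted p = 0.231 by edgeR). DESeq2, with the same genes and the same cell line term, called 3.1% of all genes lower and 2.98% higher, or 4.76% and 4.57% of the 12449 genes that received an adjusted p. Of the 8 members that received one, it called 1, MYC, lower at -0.43 (adjusted p = 0.0339 by DESeq2), while MLX (adjusted p = 0.0524) and MXD4 (adjusted p = 0.0677) missed the threshold and MYCL received no adjusted p. With the cell line term kept, the adjusted p of MYC ran from 0.0339 by DESeq2 to 0.943 by edgeR without A549. edgeR without that term called 0 genes, so MALAT1 was not called there either.

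Because TPM is a level per length, members can be set beside each other within a library. The ratio of MYC to MAX was 3.85 in the H460 control (95% interval 3.66 to 4.06, counting error only) and 3.80 in H460 si-MALAT1 (3.58 to 4.03), which overlapped. It was 1.13 (1.06 to 1.20) and 0.870 (0.813 to 0.931) in H1299 and 2.59 (2.40 to 2.80) and 1.87 (1.72 to 2.03) in A549, control first. In H1299 the ratio thus crossed 1, with less MYC than MAX transcript after si-MALAT1. These ratios compare RNA and not protein.

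The summed level of the 5 repressors lay between 42.9 and 54.5 TPM, and in each line the si-MALAT1 library was the higher one. The sum was 43.9 and 48.9 TPM in H460, 47.8 and 54.5 TPM in H1299 and 42.9 and 45.4 TPM in A549, control first. MYC divided by that sum was 1.20 and 0.843 for H460, 0.332 and 0.223 for H1299 and 0.670 and 0.416 for A549. The H460 control was the only library with more MYC than summed repressor transcript. No interval was computed for this ratio. MXD3 made up 45.7% of the sum in the H460 control and 58.8% in H460 si-MALAT1, so the limit from its overlap with PRELID1 applies here too. MXD4 divided by MYC was 0.0741 and 0.139 for H460, 0.905 and 1.98 for H1299 and 0.279 and 0.457 for A549, so that MXD4 exceeded MYC in the H1299 si-MALAT1 library alone.

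**Figure D4:**
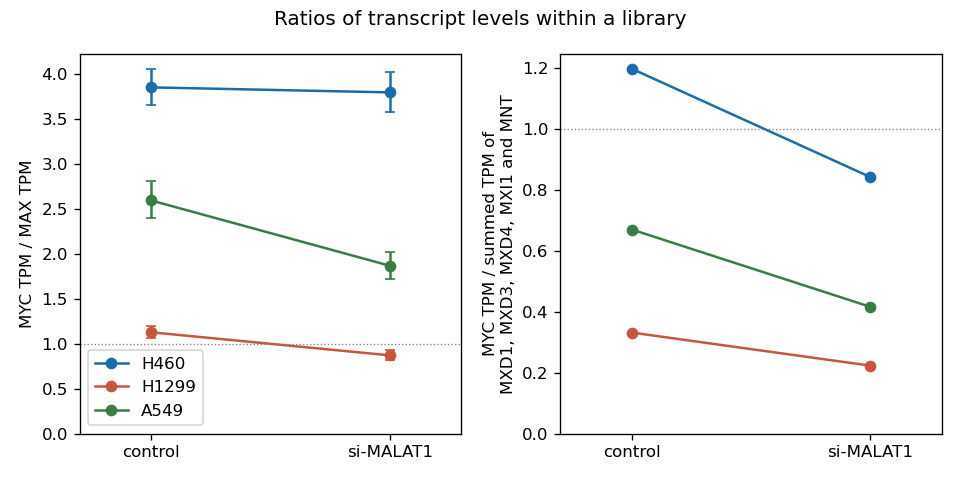
The left panel gives MYC TPM over MAX TPM in control and si-MALAT1 libraries of each line, with 95% intervals of counting error, and the right panel gives MYC TPM over the summed TPM of the 5 repressors. The dotted line is a ratio of 1, which H1299 crosses on the left (1.13 to 0.870) and H460 on the right (1.20 to 0.843).

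Known targets of MYC were read next, from lists whose choice was made with earlier results of these data in view. Of 41 MYC-induced targets, 40 had reads in each library. Lower after si-MALAT1 were 25 of the 40 for H460, 39 for H1299 and 29 for A549, and the medians were -0.03, -0.44 and -0.12, beside 0.02, 0.02 and 0.01 for all genes. The other listed gene, CCND2 (cyclin D2), which had 0 reads in A549 si-MALAT1, went the other way in H1299, with 648 and 1770 reads (95% interval of the log2 fold change 1.45 to 1.71), and is named after its values were seen. 24 of the 40 (60%) were lower in all 3 lines, against 18.8% of all genes, and 1 was higher in all 3, the translation initiation factor EIF4E. These counts take any size, and some of the 24 were near 0 in a line. TFAP4 measured -0.0007 and TERT -0.003 in H460, and NOP16 measured -0.004 in A549, with intervals that held 0. The H1299 median lay lowest, while the fold change of MYC itself was lower in A549 than in H1299.

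edgeR called 0 of the 41 targets, with 12 at an unadjusted p under 0.05, beside 15.0% of all genes. DESeq2 called 5 of the 40 with an adjusted p lower and 0 higher, beside 4.76% and 4.57% of the genes that received one. The 5, picked here after their values were seen, were CTPS1 (CTP synthase), HK2 (hexokinase of glycolysis), TFRC (transferrin receptor), SLC7A5 (amino acid carrier) and GART (purine synthesis). CTPS1 measured -1.02, -0.76 and -1.24 in H460, H1299 and A549 (adjusted p = 0.0734 by edgeR and 8.9e-09 by DESeq2). HK2 measured -0.91, -0.90 and -0.85 (adjusted p = 0.0734 by edgeR and 1.96e-05 by DESeq2), with 61 and 37 reads in A549. TFRC measured -0.46, -0.49 and -0.74, SLC7A5 measured -0.54, -1.30 and -0.44, and GART measured -0.20, -0.60 and -0.49. TERT, the catalytic subunit of telomerase, measured 0.00 for H460, -1.50 for H1299 and -1.04 for A549.

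Of 9 MYC-repressed targets, 8 had reads in each library, and 3 of the 8 were higher in all 3 lines, against 21.4% of all genes. Over the list, 3 of 8 were higher and 5 lower in H460, and 6 were higher and 2 lower in each of H1299 and A549, with medians of -0.31, 0.29 and 0.29. 1 of the 8 was lower in all 3 lines, the chaperone gene CLU at -0.26, -0.02 and -0.39, named after its values were seen. The 3 higher genes were the cell cycle inhibitors CDKN1B (p27) and CDKN1A (p21), and NDRG2. CDKN1B measured 0.87, 0.40 and 0.26 in H460, H1299 and A549, and was the list's only DESeq2 call (adjusted p = 0.0355 by DESeq2). CDKN1A measured 0.46, 0.71 and 0.00, so that its A549 value was near 0. NDRG2 measured 0.43, 0.19 and 0.96. edgeR called 0 of the 8 tested, with 2 at an unadjusted p under 0.05.

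3 of 4 targets of MLX and its MondoA and ChREBP partners had higher scaled counts after si-MALAT1 in each line with reads. Of these, ARRDC4 and KLF10 had reads in each library and were higher in all 3 lines, where 21.4% of all genes were. DESeq2 called 2 of the 3 with an adjusted p higher (TXNIP and ARRDC4), beside 4.57% of the genes that received one. TXNIP, the glucose-responsive inhibitor of thioredoxin and of glucose uptake, had 16330 and 32213 reads for H460, 0 and 0 for H1299 and 89 and 195 for A549, control first. The count was higher in both lines with reads, and in H1299 a count of 0 allows up to 3. The edgeR value, which rests on H460 and A549, was 1.01 (SE 0.15, adjusted p = 0.0966 by edgeR and 6.53e-05 by DESeq2). ARRDC4, its relative in the arrestin family, had 1127 and 2320 reads for H460, 125 and 180 for H1299 and 113 and 180 for A549, with fold changes of 1.12, 0.65 and 0.52 (adjusted p = 0.136 by edgeR and 0.0109 by DESeq2). KLF10 measured 0.13, 0.19 and 0.37, and its H460 value was -0.03 on the TPM scale. PKLR had at most 8 reads in any library. MLX itself was lower in each line.

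Among 8 coactivators of MYC, 4 were lower in all 3 lines and 0 were higher in all 3, beside 18.8% and 21.4% of all genes. KAT2A, 1 of the 4, was at 0.00 in A549 (1715 and 1896 reads). RUVBL2 measured -0.03, -0.60 and -0.40 in H460, H1299 and A549, and its H460 interval held 0. KAT5 measured -0.12, -0.16 and -0.06, and its H460 and A549 intervals held 0. RUVBL1, an ATPase of chromatin remodelling complexes, measured -0.58, -0.74 and -0.81 (adjusted p = 0.0819 by edgeR and 2.49e-07 by DESeq2), and was the list's only DESeq2 call. Among 7 corepressors, 0 were lower in all 3 lines and 1, HDAC2, was higher. Among 11 regulators of MYC protein stability, 3 were lower and 1 was higher in all 3 lines, beside the same shares of all genes. The 1 higher was FBXW7 at 0.25, 0.31 and 0.38 in H460, H1299 and A549, named after its values were seen. STUB1, 1 of the 3 lower, measured -0.17, -0.59 and -0.23. SKP2, a ubiquitin ligase subunit that acts on MYC and on p27, measured -0.36, -1.53 and -0.67 (adjusted p = 0.173 by edgeR and 0.0123 by DESeq2). AURKA, a kinase that shields MYC family proteins from turnover, measured -0.11, -0.92 and -0.57 (adjusted p = 0.0431 by DESeq2). The further network genes MGA, MLXIP and MLXIPL shared no direction over the 3 lines. edgeR called 0 members of each of these lists, with 2 coactivators, 0 corepressors, 4 stability regulators and 0 further network genes at an unadjusted p under 0.05, beside 15.0% of all genes. For each target and regulator named with a DESeq2 value, the adjusted p was highest, near 1.00, by edgeR without the cell line term. That fit called 0 genes, so MALAT1 was not called there either.

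**Figure D5:**
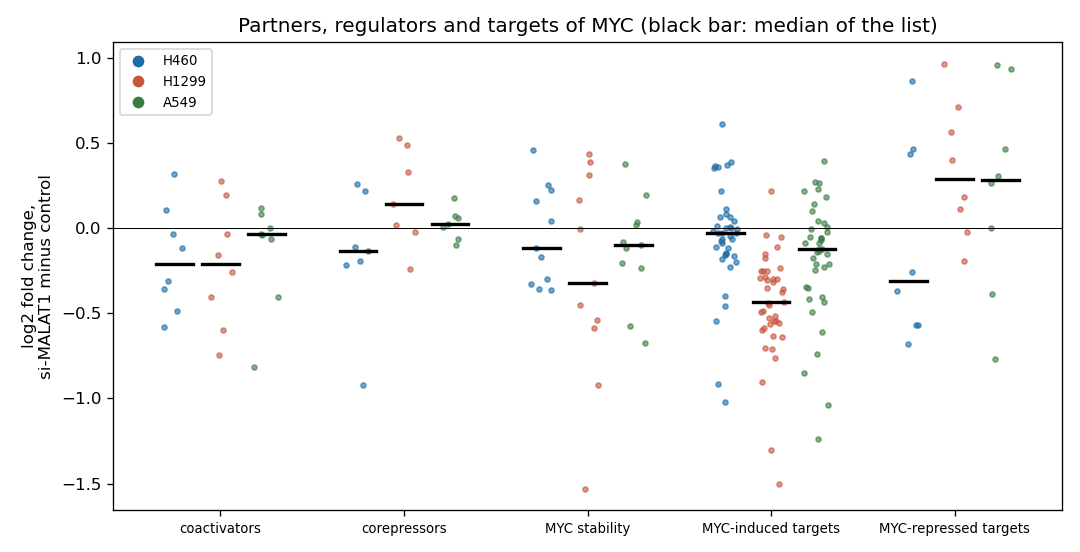
The plot gives the log2 fold change, si-MALAT1 against control, of each gene of 5 lists in each cell line, with a black bar at the list's median. The MYC-induced targets have 39 of 40 points below 0 in H1299 (median -0.44), 29 in A549 (median -0.12) and 25 in H460 (median -0.03).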

How the data were processed

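Total RNA of H460, H1299 and A549 cells was depleted of ribosomal RNA, made into stranded libraries and sequenced. The authors trimmed reads, aligned them with HISAT2 (2.1.0) and quantified genes with StringTie, version 1.3.4b in the submitters' processing notes, whereas the study's methods give another version. The notes list both hg19 and GRCh38. The deposited table of the authors holds read counts, FPKM and TPM per gene. It also has 18 columns of samples that match no label here, which were not used. Strand handling in counting is not given in the sources used here.

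Counts were tested with edgeR (4.0.16, quasi-likelihood, TMM factors, filterByExpr by treatment, cell line as a term) over 19122 genes, and with DESeq2 (1.42.0) on the same genes. The 3 lines pair the libraries, since control and si-MALAT1 share a line. Calls had an adjusted p under 0.05. Folds within a line used scaled counts plus a pseudocount of 1, levels used the deposited TPM, and FPKM served as an alternative for ratios. On GRCh38, 19333 of 19354 coding sequences of the annotation ended in a stop codon, and 12 of 12 RefSeq windows equalled the reference.

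The genes of the network and all lists were chosen with earlier results of these data known. Beyond the 10 genes and MALAT1, the text names, for each list, up to 3 genes of the largest mean change with 1 sign in the 3 lines and a mean count of at least 50, every gene of lists of up to 4, and the 3 genes most correlated with MYC. Genes named outside this rule were chosen after their values were seen or for their position. They were EIF4E, CCND2, TFAP4, NOP16, CLU, TFRC, SLC7A5, GART, FBXW7, KAT5, markers and overlapping neighbours. Total counts of 42506818 to 68515992 per library set the precision, and intervals cover counting error only.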

Additional observations from a re-analysis of the deposited data

Results flagged for a closer look

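3 repressors moved in opposite directions in different cell lines after si-MALAT1, as log2 fold changes within a line. MXD1 measured 0.52 in H1299 against -0.51 in H460 and -0.49 in A549. MXD3 measured 0.65 in H460 and 0.40 in A549 against -0.42 in H1299. MNT measured 0.58 in H1299 and 0.21 in A549 against -0.39 in H460. With 1 library per line and condition, the difference between lines was not tested, and PRELID1, on the strand opposite to MXD3, measured -0.07, -0.12 and -0.50 in H460, A549 and H1299.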

How the results depend on the processing

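In the test across lines, 0 members were called also with RLE factors and without a filter on low counts, and DESeq2 moved the number of members called from 0 to 1 (MYC). The number of all genes called moved from 1 to 0 without the filter and to 1161 with DESeq2. Without the pairing by cell line (no replicate block), 0 genes and 0 members were called. Leaving out 1 line gave between 0 and 163 genes (163 without H460, 0 without H1299 or A549). The paired value of MXD1, -0.16, became 0.11 without the pairing and ran from -0.51 to 0.038 when 1 line was left out, that of MXD3 ran from -0.029 to 0.52, and that of MNT from -0.10 to 0.38. On the TPM scale, 0 members in place of 2 were higher by a fold of 1.5 in H460, and 0 in place of 2 were lower in A549, where a pseudocount of 10 left 1 and TMM factors gave 3. Among contrasts of lines, MXD3 in A549 against H460 passed without H1299 (adjusted p = 0.0356 by edgeR), and MNT in A549 against H1299 passed without H460 (adjusted p = 0.0393 by edgeR). The cause was not tested. Depth limits MYCN, with at most 10 reads, and MYCL, whose counts of 52 to 175 leave wide intervals.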

Other observations

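The genes whose pattern over the 6 libraries was most like that of MYC, among 15902 genes with a mean count of at least 50, were TOR1AIP1 (Pearson r = 0.999, log2 scale), ABCB10 (r = 0.998) and SMN2 (r = 0.996), and 23 genes had r above 0.99. The 6 points share 3 lines and their depths, so this is a description without a p. SMN2 has a near-identical copy, SMN1, and its counts are uncertain.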
